A study of Mus musculus with 6 samples.

Results

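Collecting duct principal cells were examined in single-cell RNA profiles of 6 mouse kidneys. They were selected on raw unique molecular identifier (UMI) counts, each UMI standing for 1 captured transcript. A barcode counted as a principal cell when it held at least 2 UMIs of Aqp2, the vasopressin-regulated water channel, and 0 UMIs of the intercalated cell gene Atp6v1g3, the thick ascending limb gene Slc12a1, the distal convoluted tubule gene Slc12a3 and the leukocyte genes Ptprc and Cd3e. The kept barcodes, with a minimum of 500 UMIs and 250 genes and a mitochondrial share of UMIs up to 50%, numbered 49797, and 971 of them met this rule. The groups were 2 naive kidneys from untransplanted wild-type C57BL/6 (B6) males aged 10 to 12 weeks, 2 rejecting kidneys and 2 tolerized kidneys. Both graft groups were BALB/c kidneys from the labelled age of 6 to 7 weeks, placed in B6 males from which both native kidneys had been removed, and collected on day 15. Recipients of the rejecting grafts were untreated, whereas recipients of the tolerized grafts were given BALB/c splenocytes treated with ethylenecarbodiimide (ECDI) intravenously before and after transplantation. A graft suspension thus held donor parenchyma together with infiltrating recipient leukocytes. Naive kidneys and grafts differed in strain, age, transplantation, the annotation version of the deposited matrices and the barcodes they drew on, and these cannot be told apart in any comparison with naive kidneys. Rejecting and tolerized grafts shared all of these.

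Principal cells line the collecting duct and set the final water and salt content of urine. Vasopressin acts through its V2 receptor and cyclic AMP to bring AQP2 to the apical membrane, and water leaves the cell through AQP3 and AQP4 on the basolateral side. Aldosterone acts through the mineralocorticoid receptor on the epithelial sodium channel ENaC, and HSD11B2 protects that receptor from glucocorticoids. During an alloimmune response, interferon-γ from T and NK cells is known to act on tubular epithelium, with expression of MHC molecules, the immunoproteasome and interferon-inducible GTPases.

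The kidneys' matrices held 41562534 and 34874702 UMIs in the naive kidneys, then 56837038 and 48111410 in the rejecting grafts and 96803926 and 94316013 in the tolerized grafts. Naive kidneys 1 and 2 gave 276 and 279 principal cells, rejecting kidneys 39 and 57, and tolerized kidneys 108 and 212. These cells summed to 1531837 and 1513192 UMIs in the naive kidneys, then 382255 and 726231 in the rejecting grafts and 1478164 and 2747902 in the tolerized grafts, so the rejecting group had the thinnest sums. No barcode was a principal cell in more than 1 kidney. The median principal cell held 5076.5 and 5145 UMIs in the naive kidneys, then 8690 and 11192 in the rejecting grafts and 11836.5 and 10700 in the tolerized grafts.

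The members carried the other principal cell markers, which the rule had not used. At least 1 UMI of Aqp3, Hsd11b2 or Fxyd4 was present in 93.5% and 94.6% of naive, 87.2% and 89.5% of rejecting, and 82.4% and 79.2% of tolerized members. After each cell was thinned to 1000 UMIs, Hsd11b2 was detected in 84.4% and 90.7% of naive, 70.3% and 73.2% of rejecting, and 64.1% and 62.1% of tolerized members, against at most 2.25% of proximal tubule cells in any kidney. Shallower members were left out of that measure, 2 and 1 in the rejecting and 5 and 14 in the tolerized kidneys. On the same scale Fxyd4 was detected in 71.4% and 73.1% of naive, 70.3% and 67.9% of rejecting, and 62.1% and 35.4% of tolerized members, and Aqp3 in 63.8% and 68.8%, then 24.3% and 51.8%, and 36.9% and 18.2%. Hsd11b2 was thus found in most members of every kidney, and Fxyd4 in most members of 5 kidneys, all but tolerized kidney 2. Aqp3 was found in most members of 3, both naive kidneys and rejecting kidney 2. In tolerized kidney 2 the markers went against the labelled identity in part. The 4 principal cell genes, with Aqp2 on which the cells were chosen, summed to 7634 CPM (without TMM scaling) in its members. This lay below the 19926 CPM of 10 proximal tubule genes, and the proximal tubule gene Kap was at 13213 CPM against 3250 for Aqp2. In the other 5 kidneys the principal cell genes summed to 12807 to 19412 CPM and, with Aqp2 counted, lay above the proximal tubule genes. In naive kidney 1 and tolerized kidney 1 that order rested on Aqp2. It made up 6557 of the 14758 CPM and 9804 of the 16936 CPM there, while the proximal tubule genes summed to 10318 and 12566 CPM. Tolerized kidney 2 stood apart in other ways. Its median member held 8.5 Aqp2 UMIs, against 17.5 and 29 in naive, 21 and 40 in rejecting and 34 in the other tolerized kidney, and 34.4% of its members held exactly 2, against 8.60% to 23.1% elsewhere. The exclusion genes had removed 66.5% of its barcodes with at least 2 Aqp2 UMIs, against 32.8% in naive kidney 2, the lowest value. Of the 171 members just inside the Aqp2 limit 42.1% carried another principal marker, and of the 1714 barcodes just outside it, with 1 Aqp2 UMI, 27.1% did. In tolerized kidney 2 these shares were 47.9% and 41.2%, and its 73 members with exactly 2 Aqp2 UMIs carried Aqp3 in 8.22%, Hsd11b2 in 30.1% and Fxyd4 in 24.7%, against 9.58%, 20.7% and 21.7% of all its kept barcodes that were not members. At the limit Hsd11b2 thus lay above the rest of that kidney, Fxyd4 close to it and Aqp3 below it.

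Barcodes that met the principal cell rule made up a larger part of the naive suspensions than of the grafts. They were 3.82% and 4.61% of kept barcodes in the naive kidneys, then 0.332% and 0.706% in the rejecting grafts and 1.1% and 3.08% in the tolerized grafts. The 3 groups did not overlap, and the means were 4.21% ± 0.554 (SD, n = 2), 0.519% ± 0.264 and 2.09% ± 1.40. Infiltrating leukocytes enlarge the denominator in grafts, so the cells were also set against distal tubule cells found by the same kind of rule (thick ascending limb, distal convoluted tubule, intercalated and principal cells). Of these they were 24.1% and 28.5% in the naive kidneys, then 6.11% and 13.0% in the rejecting grafts and 14.7% and 25.1% in the tolerized grafts, and here tolerized and naive kidneys overlapped. The exact 2-sided permutation test gave p = 0.333 for each pair of groups on the share of kept barcodes, which is the smallest p that 2 kidneys against 2 allow. On the share of distal tubule cells the exact test gave p = 0.333 for rejecting against naive, 0.667 for tolerized against naive and 0.333 for tolerized against rejecting. These 9 tests, with cell numbers included, could not pass a threshold of 0.05. Fewer cells in the kidney and a poorer yield of the cells in dissociation cannot be told apart.

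**Figure D1:**
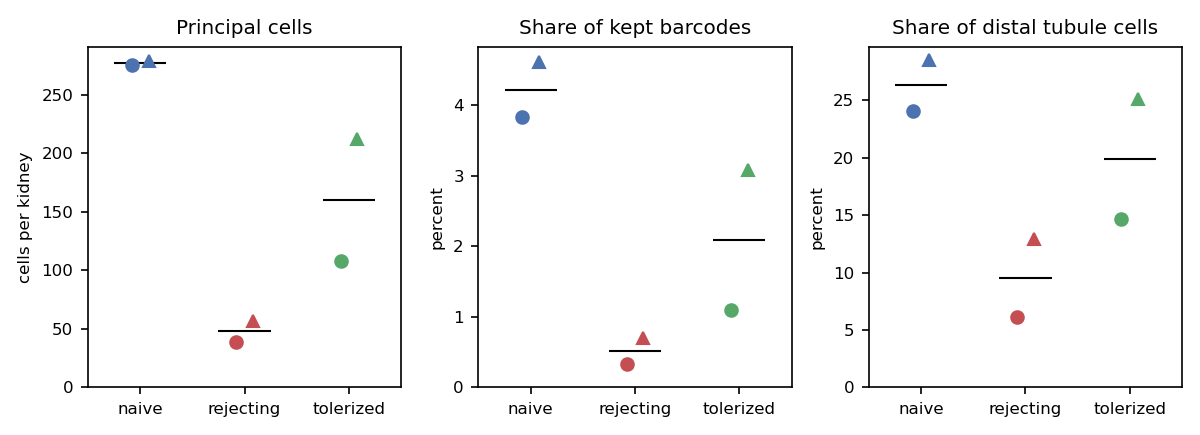
Number of principal cells, their share of kept barcodes in percent and their share of distal tubule cells in percent. Each point is 1 kidney and each line a group mean; naive kidneys lie highest in the first 2 panels, and rejecting kidneys lie lowest in all 3, at 39 and 57 cells.

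Gene levels were compared on UMIs summed over the principal cells of each kidney, with edgeR's quasi-likelihood test and a Benjamini-Hochberg adjusted p of at most 0.05 over 10107 genes. A level below is in counts per 1000000 UMIs (CPM) of those sums, scaled by TMM, and a change is a fitted log2 difference between groups. Aqp2 and the 5 exclusion genes were not tested. Against naive kidneys, 655 genes were higher and 428 lower in rejecting grafts (6.48% and 4.23% of genes tested), and 578 were higher and 358 lower in tolerized grafts (5.72% and 3.54%). In either direction these are 10.7% and 9.26%. Both comparisons share the naive kidneys. Between tolerized and rejecting grafts 21 genes passed (0.208%), 19 higher and 2 lower in tolerized grafts, and 948 had an unadjusted p under 0.05. Without naive kidney 1 or 2 or rejecting kidney 1 or 2 362 to 494 genes passed in rejecting grafts, and without naive kidney 1 or 2 274 to 287 passed in tolerized grafts. Between the graft groups 0 to 6 genes were left without a naive or a rejecting kidney, and 331 passed without tolerized kidney 1. The median change over all genes tested was −0.01, 0.04 and 0.01 in the 3 comparisons. The first principal component of the 6 sums took 53.1% of the variance and put both naive kidneys on one side and all 4 grafts on the other. The second, at 19.6%, had rejecting kidney 1 at one end and tolerized kidney 2 at the other.

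Genes of MHC class I antigen presentation were higher in the principal cells of both graft groups. Of 12 genes tested, 12 rose in rejecting and 12 in tolerized grafts, with median changes of 4.01 and 3.56. The shares of all genes tested that were higher, here and for the class II and interferon lists below, were 6.48% and 5.72%. H2-K1, a class I heavy chain, was at 293 and 427 CPM in the naive kidneys, at 4496 and 4405 in the rejecting grafts and at 4093 and 3392 in the tolerized grafts. Its change was 3.63 (SE 0.31, adjusted p = 4.03e-05) in rejecting and 3.38 (SE 0.31, adjusted p = 5.56e-05) in tolerized grafts, and the grafts lay far above the naive kidneys. B2m, the light chain of every class I molecule, was at 184 and 378 CPM in the naive kidneys, at 2717 and 4069 in the rejecting grafts and at 2518 and 3201 in the tolerized grafts. Psmb8, an immunoproteasome subunit that trims peptides for class I, went from 11.5 and 31.2 CPM to 1378 and 1295 in rejecting and 1020 and 758 in tolerized grafts. The change of Psmb8 was 5.97 (SE 0.43) and 5.38 (SE 0.42). Tap1, a subunit of the pump that carries peptides into the endoplasmic reticulum, rose by 4.87 and 4.31. Nlrc5, the transactivator of class I genes, was at 0 and 1.30 CPM in naive kidneys and between 27.3 and 34.7 CPM in the 4 grafts. H2-K1 and H2-D1 are polymorphic, and the reads were aligned to the B6 genome, so that the strain of the graft cannot be told apart from its level for these genes. The other members, Psmb9, Psmb10, Psme1, Psme2, Tap2 and Tapbp, rose by 1.53 to 5.32 in rejecting and by 1.18 to 4.54 in tolerized grafts. None of the 12 passed between tolerized and rejecting grafts, where Psmb9 had a difference of −0.78 (SE 0.22, adjusted p = 0.217).

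MHC class II genes, which present extracellular peptides to CD4 T cells and are scarce in resting epithelium, rose in both graft groups as well. All 7 tested passed in rejecting and in tolerized grafts, with median changes of 5.31 and 5.17, or 5.11 and 5.15 with Ciita, at 0 in naive kidneys, taken at its bound. Cd74, the invariant chain, was at 3.19 and 62.3 CPM in the naive kidneys, at 2082 and 2073 in the rejecting grafts and at 1974 and 1625 in the tolerized grafts. In naive kidney 2, 80 of its 96 Cd74 UMIs came from 1 member. In the grafts the highest member held 88 of 858 and 136 of 1492 Cd74 UMIs in the rejecting kidneys, and 244 of 3032 and 290 of 3829 in the tolerized kidneys. After thinning to 1000 UMIs it was detected in 1.09% and 2.51% of naive members, 78.4% and 57.1% of rejecting members, and 58.3% and 45.5% of tolerized members. The same share in proximal tubule cells was 1.74% and 4.56%, 95.8% and 96.7%, and 94.2% and 82.2%, so that the grafts' proximal tubule cells had it more often than their principal cells. The macrophage gene Lyz2, which tubule cells should lack, was detected in the same way in 0% and 0.717% of naive, 29.7% and 0% of rejecting, and 5.83% and 3.54% of tolerized members. How much of the Cd74 share was RNA of other cells was not tested. The 95% Clopper-Pearson interval of the share in principal cells ran from 61.8% to 90.2% in rejecting kidney 1 and from 38.4% to 52.7% in tolerized kidney 2, for counting error only. H2-DMa, which helps load class II molecules, was at 1.91 and 1.95 CPM in naive kidneys and between 81.1 and 170 CPM in grafts, a change of 6.14 (SE 0.38) in rejecting and 5.44 (SE 0.38) in tolerized grafts. Ciita, the class II transactivator, had no UMI in the naive members and was at 46.1 and 15.3 CPM in rejecting and 20.8 and 19.5 in tolerized grafts. None of the 7 passed between tolerized and rejecting grafts.

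**Figure D2:**
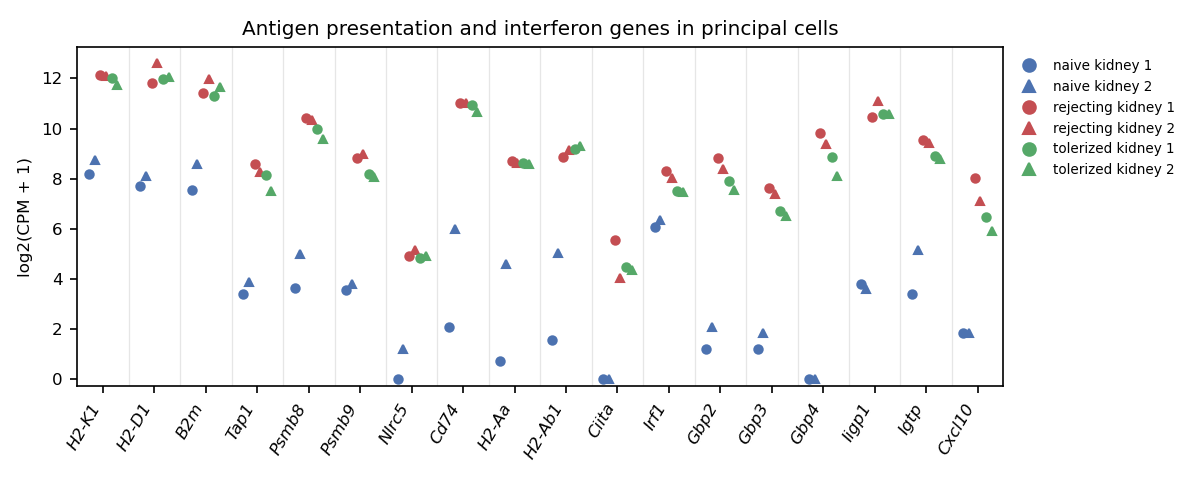
Levels of 18 antigen presentation and interferon response genes in principal cells, as log2(CPM + 1), 1 column a gene. Each point is 1 kidney (naive blue, rejecting red, tolerized green), circles kidney 1 and triangles kidney 2 of a group. In H2-K1, Psmb8 and Irf1 the 4 grafts lie above both naive kidneys, and both rejecting grafts lie above both tolerized grafts.

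Interferon-inducible genes rose with them. Of 25 tested, 22 rose in rejecting grafts (median change 3.94) and 23 in tolerized grafts (median change 3.49), and none passed between tolerized and rejecting grafts. Irf1, an interferon-induced transcription factor, was at 66.4 and 81.1 CPM in the naive kidneys, at 315 and 260 in the rejecting grafts and at 178 and 175 in the tolerized grafts. The change was 1.96 (SE 0.24, adjusted p = 0.00047) in rejecting and 1.26 (SE 0.23, adjusted p = 0.00641) in tolerized grafts. It no longer passed in tolerized grafts without naive kidney 1 (1.09) or naive kidney 2 (1.41), nor in either comparison among members with 0 UMIs of 12 leukocyte genes, where edgeR gave 1.34 (adjusted p = 0.254) and 1.13 (adjusted p = 0.055). In that selection, here and below, the rejecting group is 12 members of rejecting kidney 2 alone, so its values there are thin. Both rejecting kidneys lay above both tolerized kidneys, yet the difference of −0.70 (SE 0.23) had an adjusted p of 0.303. The guanylate binding proteins, GTPases of cell-autonomous defence, were near 0 in naive principal cells. Gbp4 had no UMI in either naive sum and was at 907 and 657 CPM in rejecting and 460 and 278 in tolerized grafts. With a floor of 3 counts over the naive group, Gbp4 was at least 775-fold higher in rejecting and at least 362-fold higher in tolerized grafts. Gbp2b, of the same family, also had no naive UMI and was at least 674-fold and 383-fold higher. The immunity-related GTPase gene Iigp1 rose from 12.8 and 11 CPM to 1414 and 2193 in rejecting and 1548 and 1526 in tolerized grafts, a change of 7.23 (SE 0.37) and 7.00 (SE 0.37). Cxcl10, a ligand of the T cell receptor CXCR3, was at 2.55 and 2.60 CPM in the naive kidneys, at 262 and 136 in the rejecting grafts and at 87.3 and 59.0 in the tolerized grafts. Among members with 0 UMIs of 12 leukocyte genes its value in rejecting grafts, from those 12 members, was −3.57 (edgeR adjusted p = 0.876), while it still passed in tolerized grafts (adjusted p = 0.0156). Ifit1 and Ifi27l2a passed in neither comparison with naive kidneys, and Irf8 passed in tolerized grafts only, a difference that was not significant between graft groups (adjusted p = 0.62).

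Gbp4 and Gbp2b also headed the genes with the largest rise in rejecting grafts. The others among the 10 were the ubiquitin-like modifier Ubd, the chemokine Cxcl9, the nucleic acid sensor Zbp1, Gbp5, Gbp10, the mitochondrial carrier Slc25a30, Apol6 and Igkc. All but Igkc had 0 UMIs in both naive sums and were at least 45.8-fold higher in rejecting grafts. Cxcl9 rested mostly on rejecting kidney 1, with 175 CPM there and 18.1 in rejecting kidney 2, and passed in 3 of the 6 fits with 1 kidney left out, whereas the other 8 passed in all 6. Igkc, the immunoglobulin κ constant region of B lineage cells, rested on 1 cell, since 2807 of its 2844 UMIs in rejecting kidney 2 lay in 1 member. Among members with 0 UMIs of 12 leukocyte genes the calls of Ubd, Zbp1 and Apol6 in rejecting grafts were lost, with rejecting kidney 2 alone in its group. The lowest fitted changes of Ubd, Zbp1 and Apol6 over all alternatives were 8.02, 8.34 and 7.91. In tolerized grafts Gbp2b, Gbp4, Ubd, Slc25a30, Zbp1 and Gbp10 were again among the 10, joined by Angptl7, the complement component C4b, Pianp and Gnb5, each with 0 naive UMIs. Angptl7 was at 14.6 and 18.1 CPM in rejecting and 43.0 and 147 in tolerized grafts, and was higher in the proximal tubule cells of grafts too.

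Promoter sequence was read for these lists from RefSeq on GRCm38.p6, a B6 sequence, 250 bases before to 50 after each gene's start, with 21 of the 25 interferon genes, 10 of the 12 class I genes and 4 of the 7 class II genes matched. For each, 2 motifs were searched, on both strands: the γ-activated site (GAS) TTCNNNGAA, a palindrome read once, and the core of the interferon-stimulated response element (ISRE), which is GAAA, any 2 bases and GAAA again. GAS was found in 8 of the 21 interferon promoters and the ISRE core in 14, against 9.55% and 3.99% of 27025 genes with a promoter in the table. Among class I genes GAS was found in Psmb8 and the ISRE core in B2m and Psme1, and neither was found in the 4 class II promoters. The windows below show these letters in genes described above and in 2 neighbouring Irg genes, Igtp and Irgm2, whose windows are nearly the same. Each reads 5′ to 3′ on the plus strand, with the motif in capitals, and lies wholly upstream of the RefSeq start used here. Another GRCm38 annotation starts Gbp2, Gbp3, Psmb8 and Irgm2 further upstream, within or before these windows.
Gbp2, ISRE core, chr3:142620584-142620633: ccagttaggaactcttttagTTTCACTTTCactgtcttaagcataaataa
Gbp3, ISRE core, chr3:142559979-142560028: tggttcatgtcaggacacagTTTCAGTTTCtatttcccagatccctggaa
B2m, ISRE core, chr2:122147528-122147577: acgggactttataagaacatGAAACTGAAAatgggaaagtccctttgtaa
Irf1, GAS, chr11:53769904-53769952: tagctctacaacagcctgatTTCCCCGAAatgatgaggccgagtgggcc
Psmb8, GAS, chr17:34198078-34198126: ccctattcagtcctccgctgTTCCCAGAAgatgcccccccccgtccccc
Igtp, GAS, chr11:58199491-58199539: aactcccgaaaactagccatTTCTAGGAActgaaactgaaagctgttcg
Irgm2, GAS, chr11:58214882-58214930: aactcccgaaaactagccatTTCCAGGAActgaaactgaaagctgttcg
In Igtp and Irgm2 the ISRE core GAAACTGAAA follows the GAS within 2 bases. The motifs start 59 bases before the RefSeq start in Gbp2, 45 in Gbp3, 139 in B2m, 90 in Irf1, 97 in Psmb8, 45 in Igtp and 75 in Irgm2. Of these genes, Gbp2 rose by 7.37, Gbp3 by 6.48, B2m by 3.60, Irf1 by 1.96, Psmb8 by 5.97, Igtp by 5.03 and Irgm2 by 3.54 in rejecting grafts. A match says only that the letters occur there, and its use in these cells was not measured.

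Leukocyte transcripts moved with these groups and are given beside them. Summed over 11 macrophage and monocyte markers, principal cells held 5.88 and 86.7 CPM (without the TMM scaling, here called unscaled) in the naive kidneys, then 438 and 161 in the rejecting grafts and 142 and 82.3 in the tolerized grafts. Lyz2 was the most abundant of them in rejecting kidney 1 and both tolerized kidneys, Ctss in rejecting kidney 2, C1qa in naive kidney 2 and Cd68 in naive kidney 1. Of the 7 tested, Lyz2 and Ctss rose in both graft groups. The shares of all genes tested that were higher, here and for the T, NK and B cell markers below, were 6.48% in rejecting and 5.72% in tolerized grafts. The 12 T and NK cell markers summed to 15 and 13.9, 215 and 49.6, and 40.7 and 38.3 CPM, led by Ccl5 or Cd8a, and Ccl5 was the 1 of 2 tested that rose in both graft groups. Cd3e was at 0 by the rule, and Gzmb was at 0 in 5 kidneys, all but tolerized kidney 2. The 6 B cell markers summed to 5.23 and 5.29, 18.3 and 192, and 42.7 and 22.6 CPM, and Ighm, 1 of 2 tested, rose in both. The median member held 0 UMIs of 35 leukocyte genes in both naive kidneys, whereas it held 8 and 3 in the rejecting grafts and 2 and 2 in the tolerized grafts. When the 11 members with 20 or more of these UMIs were left out, all 12 class I genes, all 7 class II genes and 22 of 24 interferon genes still rose in rejecting grafts, and 12, 7 and 22 of 24 in tolerized grafts. Of all 10060 genes tested there, 650 were higher in rejecting and 599 in tolerized grafts. Kept to members with 0 UMIs of 12 leukocyte genes, rejecting kidney 1 had no member, and 12 of the 57 in rejecting kidney 2 were left. In this selection fewer class I, class II and interferon genes were called higher in each graft group than among all members, and so were fewer of all genes tested. The rejecting group is 1 kidney there, so these calls are not counted by list. The part of leukocyte RNA in the remaining levels was not tested.

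The levels reached in graft principal cells can be set against those of other tubule cells, each in unscaled CPM of that cell type. Gbp4 was at 980 and 652 CPM in the principal cells of rejecting kidneys, against 116 and 175 in thick ascending limb cells, 178 and 62.5 in intercalated cells, 196 and 187 in distal convoluted tubule cells and 172 and 173 in proximal tubule cells. Gbp2b was at 925 and 530 CPM in principal cells and at 246 and 364 in thick ascending limb cells, while proximal tubule cells had 479 and 525. In proximal tubule cells Cd74 was at 5708 and 6546 CPM in rejecting kidneys, above the 2248 and 2058 of principal cells. These values are descriptions. Gbp4 and Gbp2b had 0 UMIs in the naive sums of principal and thick ascending limb cells alike, so their change from naive kidneys could not be compared between the cell types. For H2-K1, Cd74 and Krt8 it could (edgeR's quasi-likelihood test over both cell types), and the change to rejecting grafts in principal cells minus that in thick ascending limb cells was −0.45 (SE 0.22, adjusted p = 0.553) for H2-K1, 1.59 (SE 0.35, adjusted p = 0.0742) for Cd74 and 0.73 (SE 0.36, adjusted p = 0.558) for Krt8, and these 3 did not pass. Of the 12 class I, 7 class II and 25 interferon genes, 3 passed, Iigp1, Igtp and Irf1, each with the smaller rise in principal cells. Over all 10634 genes tested in this way 39 passed in either direction (0.367%). Igtp went from 9.80 and 35.1 to 807 and 684 CPM in principal cells and from 0.905 and 4.74 to 572 and 546 in thick ascending limb cells, a difference of −2.52 (SE 0.48, adjusted p = 0.0301). Iigp1 had no UMI in naive thick ascending limb cells and ended at 1179 and 1638 CPM there, against 1527 and 2178 in principal cells. The class I gene H2-Q4, outside the list and picked after its values were seen, also passed, with 0.905 and 0 CPM in naive thick ascending limb cells (difference −4.15, SE 0.84, adjusted p = 0.0394).

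Principal cell markers that the rule did not use did not pass the test in either comparison with naive kidneys. Hsd11b2 was at 3237 and 3928 CPM in the naive kidneys, at 2402 and 2511 in the rejecting grafts and at 2487 and 2787 in the tolerized grafts, with changes of −0.54 (SE 0.26, adjusted p = 0.206) and −0.44 (SE 0.26, adjusted p = 0.325). All 4 grafts lay below both naive kidneys. Aqp3 was at 1438 and 2035 CPM in the naive kidneys, at 313 and 1403 in the rejecting grafts and at 750 and 398 in the tolerized grafts, with changes of −1.01 (SE 0.54, adjusted p = 0.261) and −1.60 (SE 0.55, adjusted p = 0.0934). The rejecting kidneys differed from each other by more than either comparison. Fxyd4, a regulator of the sodium pump, was at 3333 and 4121 CPM in the naive kidneys, at 3496 and 3167 in the rejecting grafts and at 3618 and 1922 in the tolerized grafts. Aqp2, on which the cells were chosen, was at 6402 and 8954, 5648 and 8329, and 9422 and 3786 CPM.

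The vasopressin and water transport genes held 2 changes of 10 tested in each comparison with naive kidneys, against 10.7% and 9.26% of all genes tested, and none between the graft groups. The whole list had 14 genes, and the median change was −0.41 in rejecting and −0.54 in tolerized grafts. Avpr2, the V2 receptor, was at 248 and 351 CPM in the naive kidneys, at 391 and 278 in the rejecting grafts and at 294 and 159 in the tolerized grafts, and did not pass. Aqp4, a basolateral water channel, was at 201 and 257 CPM in the naive kidneys, at 422 and 532 in the rejecting grafts and at 511 and 296 in the tolerized grafts. It rose by 1.06 (SE 0.30, adjusted p = 0.0444) in rejecting grafts, and its change of 0.81 in tolerized grafts had an adjusted p of 0.113. Pde4d, a phosphodiesterase that breaks down cyclic AMP, was at 88.7 and 58.4 CPM in the naive kidneys, at 34.0 and 34.7 in the rejecting grafts and at 31.9 and 31.4 in the tolerized grafts. It fell by 1.09 (adjusted p = 0.0387) and by 1.22 (adjusted p = 0.0133). Ptger4, a prostaglandin E2 receptor, fell by 2.27 (SE 0.52, adjusted p = 0.019) in tolerized grafts, from 15.3 and 12.3 CPM to 1.95 and 3.40, and was at 4.85 and 2.78 in rejecting grafts. Aqp4 and Pde4d each passed in 2 of the 6 fits with 1 kidney left out in the rejecting comparison, and Ptger4 in 3 of 6 in the tolerized one. With the kidney number as a replicate block both calls in rejecting grafts were lost, at 1.06 (edgeR adjusted p = 0.0569) for Aqp4 and −1.06 (adjusted p = 0.0534) for Pde4d. DESeq2 did not call Pde4d in rejecting or Ptger4 in tolerized grafts. The calls of Aqp4, Pde4d and Ptger4 were also lost among members with 0 UMIs of 12 leukocyte genes, where rejecting kidney 2 stood alone in its group.

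Of 24 sodium and aldosterone genes 23 were tested, and 2 fell in rejecting grafts while none passed in tolerized grafts, against 4.23% and 3.54% of all genes tested that were lower. The median changes were −0.32 and −0.22. With a replicate block 2 fell in tolerized grafts as well. The 3 ENaC subunits gave different values. Scnn1a was at 274 and 422 CPM in the naive kidneys, at 226 and 219 in the rejecting grafts and at 195 and 195 in the tolerized grafts, with changes of −0.65 (adjusted p = 0.137) and −0.84 (adjusted p = 0.0628). Scnn1b was at 391 and 495, 432 and 478, and 514 and 429 CPM, so that its groups overlapped. Scnn1g was at 304 and 421, 170 and 318, and 154 and 208 CPM, with changes of −0.55 and −1.0 (adjusted p = 0.292 and 0.0707). Nr3c2, the mineralocorticoid receptor, and Kcnj1, the apical potassium channel ROMK, differed by at most 0.38 in either comparison and did not pass. The genes that fell in rejecting grafts were Kcne1, an accessory subunit of potassium channels, from 382 and 404 to 167 and 156 CPM (change −1.29, SE 0.32, adjusted p = 0.0263), and Usp2, a deubiquitinase, from 75.3 and 74.0 to 21.8 and 33.3 CPM (change −1.38, SE 0.31, adjusted p = 0.0183). In tolerized grafts Kcne1 was at 143 and 289 CPM and Usp2 at 37.8 and 55.6. Each passed in 2 of the 6 fits with 1 kidney left out. Among members with 0 UMIs of 12 leukocyte genes neither passed. Usp2 was at 0.44 there, whereas Kcne1 lay between −1.40 and −0.97 in every alternative, this one included.

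Collecting duct identity genes split by role. Among 24 tested, 5 rose and 2 fell in rejecting grafts and 1 rose in tolerized grafts, with median changes of 0.43 and 0.10. Over all genes tested, 6.48% were higher and 4.23% lower in rejecting grafts, and 5.72% were higher in tolerized grafts. Transcription factors of the collecting duct were mostly unmoved by the test. Tfcp2l1 was at 716 and 761 CPM in the naive kidneys, at 682 and 929 in the rejecting grafts and at 678 and 686 in the tolerized grafts, and Gata3 at 287 and 267, 250 and 236, and 208 and 179. Elf5 was the factor that rose, from 30.0 and 40.9 to 77.6 and 119 CPM in rejecting grafts (change 1.5, SE 0.30, adjusted p = 0.00983), with 55.4 and 39.9 in tolerized grafts. Among members with 0 UMIs of 12 leukocyte genes its value was −1.70 in rejecting grafts (adjusted p = 0.552).

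The keratins were the larger movers. Krt8, a filament protein of simple epithelia, was at 129 and 138 CPM in the naive kidneys, at 910 and 510 in the rejecting grafts and at 774 and 222 in the tolerized grafts. It rose by 2.40 (SE 0.50, adjusted p = 0.0114) in rejecting and by 1.89 (SE 0.49, adjusted p = 0.0324) in tolerized grafts. With 1 kidney left out Krt8 passed in 3 of 6 fits in rejecting and in 1 of 6 in tolerized grafts, where its change was 0.73 without tolerized kidney 1 and 2.52 without tolerized kidney 2, and DESeq2 did not call it there. Its partner Krt18 was at 258 and 249, 1097 and 861, and 876 and 293 CPM, and passed in rejecting grafts (change 1.95, SE 0.42). Krt19 went from 1.28 and 9.09 to 38.8 and 52.8 CPM in rejecting grafts, with 25.4 and 8.49 in tolerized grafts. In each keratin tolerized kidney 1 lay near the rejecting kidneys and tolerized kidney 2 near the naive ones. Mal, an apical sorting protein, rose from 807 and 828 to 1790 and 1985 CPM in rejecting grafts. Cldn8, a tight junction claudin of this segment, fell from 521 and 407 to 153 and 250 CPM (change −1.19, SE 0.30, adjusted p = 0.0308), and was at 298 and 199 in tolerized grafts. Krt18 and Cldn8 passed in 2 of the 6 fits with 1 kidney left out, and Elf5, Krt19 and Mal in 3 of 6. The number of these 24 genes that rose in rejecting grafts ranged from 0 to 9 as 1 kidney was left out, and was 0 among members with 0 UMIs of 12 leukocyte genes. Of 6 osmolyte genes tested of 8, which protect cells in a hypertonic medulla, none passed in either comparison, with median changes of 0.57 and 0.28. Over all genes tested, 10.7% and 9.26% passed in either direction. Beside the identity genes, 3 of 4 distal convoluted tubule markers tested rose in rejecting and 2 in tolerized grafts, with median changes of 1.88 and 1.55. Of all genes tested, 6.48% and 5.72% were higher. The source of those marker transcripts was not tested.

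**Figure D3:**
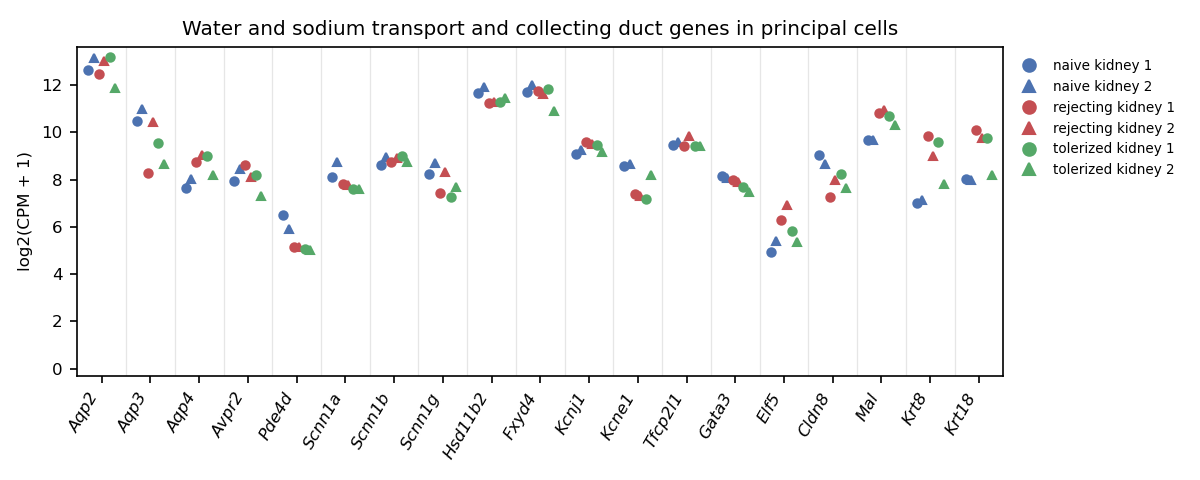
Levels of 19 principal cell genes for water, sodium and identity in principal cells, as log2(CPM + 1), 1 column a gene. Each point is 1 kidney (naive blue, rejecting red, tolerized green), circles kidney 1 and triangles kidney 2 of a group; in Krt8 all 4 grafts lie above the naive kidneys, and in Pde4d all 4 lie below.

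Injury and chemokine genes rose in part. Of 22 genes 14 were tested, 6 rose in rejecting grafts and 4 rose and 1 fell in tolerized grafts, with median changes of 1.08 and 0.74. Over all genes tested, 6.48% were higher in rejecting grafts, and 5.72% were higher and 3.54% lower in tolerized grafts. Icam1, an adhesion molecule for leukocyte integrins, was at 5.74 and 6.49 CPM in the naive kidneys, at 133 and 138 in the rejecting grafts and at 78.1 and 49.2 in the tolerized grafts. It rose by 4.45 (SE 0.34, adjusted p = 1.91e-05) and 3.35 (SE 0.34, adjusted p = 0.000114), and passed in all 6 fits with 1 kidney left out in both comparisons. The list as a whole was less stable, with 2 to 7 genes that rose in rejecting and 1 to 5 in tolerized grafts over these fits. Clu, a secreted chaperone, was at 367 and 637, 1017 and 1431, and 1776 and 1372 CPM, with changes of 1.29 (adjusted p = 0.027) and 1.65 (adjusted p = 0.00903). Csf1, the growth factor of macrophages, rose by 2.13 and 1.30, and Cxcl16, a membrane chemokine, by 1.44 and 1.11. Lcn2, the injury marker NGAL, was at 33.8 and 138 CPM in the naive kidneys, at 332 and 864 in the rejecting grafts and at 584 and 171 in the tolerized grafts. It passed in rejecting grafts (change 2.81, SE 0.69, adjusted p = 0.0259) and not in tolerized grafts (change 2.13, SE 0.68, adjusted p = 0.0752). Vcam1 passed in rejecting grafts with 55.8 CPM in kidney 1 and 6.95 in kidney 2. Anxa1, which restrains inflammation, fell by 1.84 in tolerized grafts. In rejecting grafts Clu passed in 2 of the 6 fits with 1 kidney left out, Lcn2 and Vcam1 in 3, Cxcl16 in 4 and Csf1 in 5, and in tolerized grafts Csf1 in 3, Cxcl16 and Anxa1 in 4 and Clu in 5. Spp1, osteopontin, was at 1170 and 1308, 286 and 1504, and 857 and 1475 CPM, and the groups overlapped. None of the 14 passed between tolerized and rejecting grafts. Among members with 0 UMIs of 12 leukocyte genes 10 were tested, and Icam1 alone rose in rejecting grafts, while Icam1 rose and Anxa1 fell in tolerized grafts.

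Immediate early and heat shock genes, which respond within minutes to stimuli that include tissue dissociation, fell in part. Of 13 tested, 1 rose and 4 fell in rejecting grafts and 7 fell in tolerized grafts. Over all genes tested, 6.48% were higher and 4.23% lower in rejecting grafts, and 3.54% were lower in tolerized grafts. The median changes of the 13 were −0.73 and −0.88. With 1 kidney left out 1 to 5 fell in rejecting and 1 to 7 in tolerized grafts. Egr1 was at 780 and 739 CPM in the naive kidneys, at 311 and 370 in the rejecting grafts and at 229 and 200 in the tolerized grafts, a change of −1.15 and −1.82. Dusp1, which switches off MAP kinases, was at 168 and 158, 31.5 and 44.5, and 82.0 and 82.8 CPM, a change of −2.06 (SE 0.26, adjusted p = 0.000542) and −0.98 (SE 0.21, adjusted p = 0.0158). Atf3 was the one that rose, from 27.4 and 64.2 to 167 and 206 CPM in rejecting grafts. Among members with 0 UMIs of 12 leukocyte genes none of the 13 passed in rejecting grafts, where Dusp1 was at a change of −0.098 (adjusted p = 0.944), and 7 fell in tolerized grafts. Fos fell by 1.81 in tolerized grafts, and its change of −1.05 in rejecting grafts had an adjusted p of 0.0573. Of 17 nuclear genes of mitochondrial ATP production 4 fell in rejecting grafts and none passed in tolerized grafts, against 4.23% and 3.54% of all genes tested that were lower. The genes that fell were Atp5k, Ndufa4 and Sdha, of ATP synthase and the respiratory chain, by 1.45, 1.03 and 1.06, and Ppargc1a, a transcriptional coactivator, by 1.17. The median changes of the 17 were −0.61 and −0.27. With 1 kidney left out 0 to 5 fell in rejecting grafts, Ndufa4 and Ppargc1a passing in 2 of 6 fits, Sdha in 3 and Atp5k in 4, and with 0 UMIs of 12 leukocyte genes none did. The median share of mitochondrial UMIs in members was 20.5% and 22.7% in the naive kidneys, then 18.3% and 19.1% in the rejecting grafts and 13.5% and 23.2% in the tolerized grafts.

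Among the genes with the largest fall, several were at 0 in grafts. Spock3, a secreted proteoglycan, was at 47.9 and 50.6 CPM in naive principal cells, at 0 in both rejecting grafts and at 0 and 5.09 in the tolerized grafts, and was at least 18.6-fold lower in rejecting grafts. Asb4, a substrate adaptor of ubiquitin ligases, was at 30.0 and 27.3 CPM in naive principal cells and at 0 in all 4 grafts, at least 10.8-fold lower in rejecting and 37.1-fold lower in tolerized grafts. In naive kidneys neither gene had a UMI in intercalated or distal convoluted tubule cells, and in thick ascending limb cells Spock3 had none and Asb4 was at 0 and 1.58 CPM. Hgs, an endosomal sorting gene, was at 33.8 and 32.4 CPM in naive principal cells and 0 in all 4 grafts. A second gene entry of the same name starts at the same base, chr11:120467635, and its UMIs are not in the values given for Hgs. Hgs was also at or near 0 in every other graft cell type and at 13.1 to 25.4 CPM in the other naive tubule cell types. The rest of the 10 in rejecting grafts were Gm49342, Ccl27a, 4930481A15Rik, Rpgrip1, Rab6b, D630029K05Rik and Isoc2a, all at 0 in both rejecting sums. With 1 kidney left out Isoc2a passed in 2 of 6 fits, Rab6b and D630029K05Rik in 3 and Spock3 in 5, which DESeq2 did not call, and the other 6 passed in all 6. None of the 10 passed among members with 0 UMIs of 12 leukocyte genes. In tolerized grafts Gm49342, Hgs, Asb4 and 4930481A15Rik were again among the 10, with Fam177a, Fdx1l, Pelo, Thtpa, Srp54c and Hoxd4. Hoxd4, a homeobox gene of the caudal body axis, was at 103 and 64.9 CPM in the naive kidneys, at 2.43 and 2.78 in the rejecting grafts and at 0 and 0.424 in the tolerized grafts. It was lower in the grafts' thick ascending limb and distal convoluted tubule cells as well. The matrices of grafts listed 31053 genes and those of naive kidneys 28692, from different annotations, which cannot be told apart from the groups for such genes.

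Tolerized and rejecting grafts, the comparison that shares strain, age and surgery, differed in few genes. The 19 genes higher in tolerized grafts included Eci3, Hao2, Kap, Fbp1, Pdzk1, Spink1, AI314278, Ass1 and Miox. Of these, Kap, Miox, Fbp1 and Pdzk1 are known for their expression in proximal tubule. Eci3, Hao2, Spink1, AI314278 and Ass1 were also lower in principal cells than in proximal tubule cells of the same kidney, in every kidney. As a percentage of that proximal tubule level, each was lowest in the rejecting grafts. For Spink1 the naive percentages were 17.2% and 13.0%, the rejecting ones 4.24% and 5.32%, and the tolerized ones 15.3% and 36.0%. Kap, the kidney androgen-regulated protein, was at 5369 and 3387 CPM in the naive kidneys, at 898 and 1985 in the rejecting grafts and at 7907 and 15392 in the tolerized grafts, a difference of 3.01 (SE 0.46, adjusted p = 0.0323). Miox, which catabolises myo-inositol, was at 542 and 415, 158 and 158, and 802 and 1074 CPM, a difference of 2.57 (SE 0.28, adjusted p = 0.0134). Spink1, a trypsin inhibitor, was at 858 and 629, 65.5 and 70.8, and 343 and 612 CPM, a difference of 2.80 (SE 0.34, adjusted p = 0.0192). In each the naive level lay above the rejecting level, and the tolerized level lay above it in Kap and Miox. Kap and Miox passed in 2 and 3 of the 6 fits with 1 kidney left out, and without rejecting kidney 1 or 2 or naive kidney 2 none of the genes tested was called higher in tolerized grafts. The number called higher was also 0 when members needed at least 5 Aqp2 UMIs, when they needed at least 1 UMI of Aqp3, Hsd11b2 or Fxyd4, and when they held 0 UMIs of 12 leukocyte genes. In these 3 selections the difference was 1.88, 3.19 and 1.67 for Kap, 3.12, 2.97 and 0.50 for Miox, and 2.73, 3.31 and 0.99 for Spink1.

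The list of 10 proximal tubule markers moved the same way. Between tolerized and rejecting grafts 4 of 10 rose, with a median change of 2.19. Against naive kidneys 5 fell in rejecting grafts and 2 rose in tolerized grafts, with medians of −1.60 and 0.99. Over all genes tested, 0.208% passed between the graft groups, 4.23% were lower in rejecting and 5.72% higher in tolerized grafts. Summed, the 10 markers were at 10318 and 7319 CPM (unscaled) in naive principal cells, at 2497 and 2958 in those of rejecting grafts and at 12566 and 19926 in those of tolerized grafts, and Kap was the most abundant. As a percentage of its level in the same kidney's proximal tubule cells, Kap in principal cells was 22.4% and 13.5% in the naive kidneys, then 3.18% and 5.11% in the rejecting grafts and 15.5% and 52.4% in the tolerized grafts. For Miox these values were 17.4% and 11.7%, 5.83% and 6.97%, and 25% and 38.9%, and for Lrp2, the endocytic receptor megalin, 22.5% and 14.3%, 8.77% and 6.46%, and 15.7% and 32.4%. Kap, Miox and Lrp2 thus stayed below their proximal tubule level in every kidney, with the lowest percentages in the rejecting grafts. Slc5a12, a lactate transporter, had its highest percentage in rejecting kidney 1, at 24.5%, against 8.51% to 22% in the other 5 kidneys. Of the 36263 Kap UMIs in tolerized kidney 2, the highest member held 3987. Whether these transcripts came from the principal cells was not tested.

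**Figure D4:**
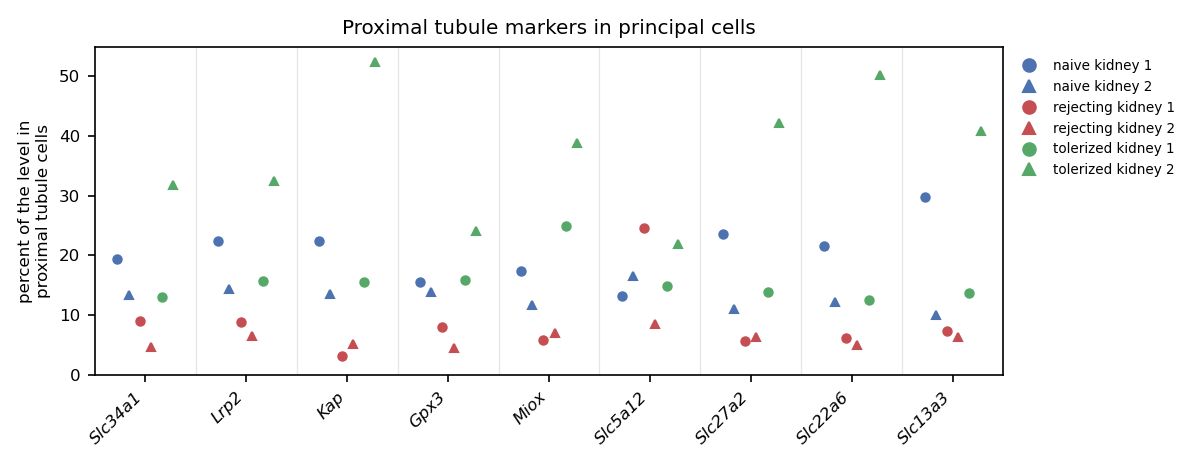
Level of 9 proximal tubule markers in principal cells as a percentage of the level in proximal tubule cells of the same kidney. Each point is 1 kidney (naive blue, rejecting red, tolerized green); Kap is at 3.18% and 5.11% in the rejecting kidneys and reaches 52.4% in tolerized kidney 2.

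Both genes lower in tolerized than in rejecting grafts had other values beside them. Car15, a membrane-anchored carbonic anhydrase on chr16:17835276-17838364 (GRCm38), was at 24.2 and 26.6 CPM in the naive kidneys, at 318 and 101 in the rejecting grafts and at 14.3 and 5.09 in the tolerized grafts, a difference of −4.47 (SE 0.56, adjusted p = 0.0192). Its rejecting kidneys lay above all others. Unscaled, Car15 in thick ascending limb cells was at 48.9 and 44.2, 353 and 93.2, and 10.8 and 12.2 CPM, and in intercalated cells at 72.6 and 59.4, 150 and 25.7, and 1.83 and 18 CPM, while in proximal tubule cells it was at most 2.01 CPM. Car15 passed in 4 of the 6 fits with 1 kidney left out. Cd52, a glycoprotein of lymphocytes, differed by −3.71 (SE 0.53, adjusted p = 0.0289), and 251 of its 262 UMIs in rejecting kidney 2 lay in 1 member.

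To see where principal cells changed otherwise than a neighbouring segment, their change was compared with that of thick ascending limb cells (at least 2 UMIs of Slc12a1 and 0 of the other rule genes) in 1 fit over both cell types with the kidney as a block. Of 10634 genes, 39 differed between the cell types in their change from naive to rejecting kidneys (0.367%), 13 with the larger increase or smaller fall in principal cells and 26 with it in thick ascending limb cells. Among cells with 0 UMIs of 12 leukocyte genes the split was 36 and 27. Levels in this paragraph and the next are unscaled CPM of each cell type. Atp2b4, a plasma membrane calcium pump, was at 18.3 and 19.2 CPM in naive and 44.5 and 74.5 in rejecting principal cells, and at 49.8 and 34.7 and then 8.95 and 16.8 in thick ascending limb cells. The difference between the changes was 3.51 (SE 0.38, adjusted p = 0.00027), and the segments moved in opposite directions. Kl, the co-receptor of FGF23, was at 595 and 498 and then 424 and 935 CPM in principal cells, and fell from 228 and 191 to 68.6 and 95.8 in thick ascending limb cells (difference 1.71, SE 0.25). Clu went from 376 and 650 to 1098 and 1420 CPM in principal cells and stayed between 53.4 and 75.8 in thick ascending limb cells of naive and rejecting kidneys (difference 1.44, SE 0.26, adjusted p = 0.0196).

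Genes on the other side had in part started high in naive principal cells. Ly6e, an interferon-inducible surface protein, was at 970 and 1242 CPM in naive and 443 and 411 in rejecting principal cells, and at 108 and 125 and then 322 and 300 in thick ascending limb cells (difference −2.69, SE 0.24, adjusted p = 5.68e-05). Sh3bgrl3, a small thioredoxin-fold protein, went from 1432 and 1841 to 328 and 306 CPM in principal cells and from 55.2 and 83.7 to 96.9 and 75.7 in thick ascending limb cells (difference −2.60, SE 0.25, adjusted p = 7.07e-05). Prss23, a serine protease, went from 233 and 203 to 76.0 and 67.6 CPM against 36.2 and 30.0 to 64.9 and 65.4 (difference −2.48, SE 0.28). For Ly6e and Prss23 the segments again moved in opposite directions. Irf1 rose in both, from 68.0 and 82.7 to 341 and 258 CPM in principal cells and from 5.43 and 4.74 to 118 and 140 in thick ascending limb cells (difference −2.54, SE 0.41). Gdf15, a stress-induced cytokine, rose from 175 and 144 to 401 and 509 CPM and from 7.24 and 1.58 to 93.2 and 195 (difference −3.19, SE 0.44). Irf1 and Gdf15 ended higher in principal cells, with a lower start in thick ascending limb cells. Egr1, Fos and Dusp1 were also on this side, with differences of −1.30, −0.97 and −1.36. Between tolerized and rejecting grafts 17 genes differed in this way (0.16%), 13 on the side of principal cells and 4 on the other, and among cells with 0 UMIs of 12 leukocyte genes 2 and 11.

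**Figure D5:**
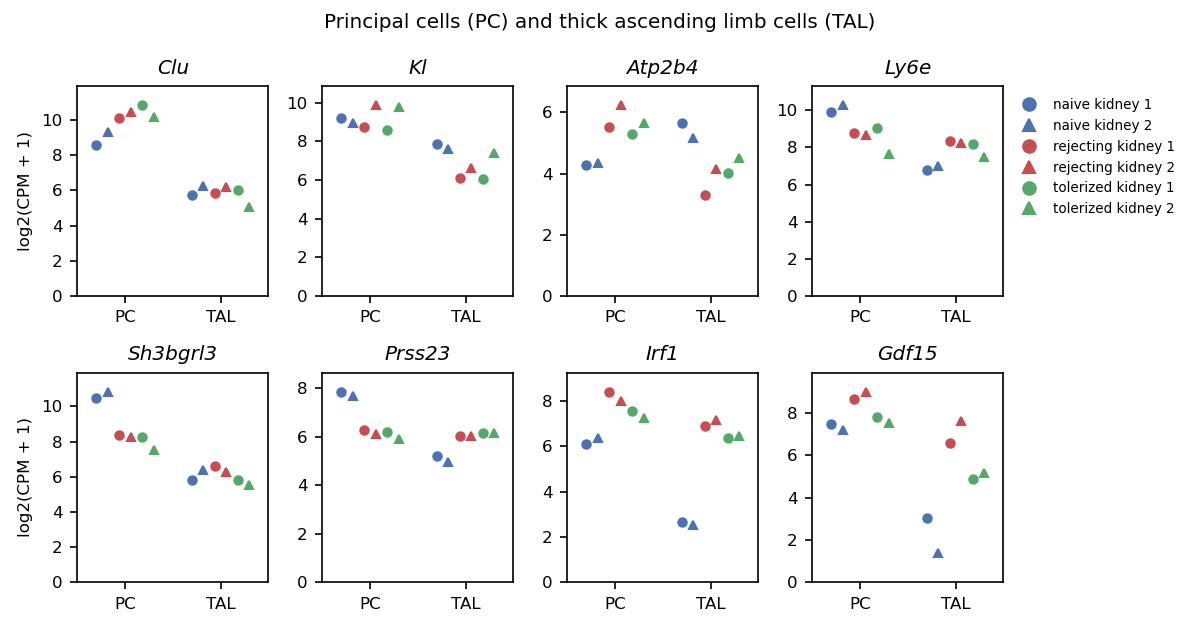
Levels of 8 genes in principal cells (PC) and thick ascending limb cells (TAL), as log2(unscaled CPM + 1), 1 panel a gene. Each point is 1 kidney (naive blue, rejecting red, tolerized green); Atp2b4, Ly6e and Prss23 move in opposite directions from naive to rejecting kidneys in the 2 cell types, and Clu rises in principal cells, from 376 and 650 to 1098 and 1420 CPM.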

How the data were processed

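Cells were dissociated from 6 kidneys and profiled on the 10x Genomics platform. The authors deposited raw UMI counts per gene and barcode, and the submitters' processing notes name bcl2fastq, Cell Ranger and mm10. No column of another sample was present (0). Barcodes passed at 500 UMIs, 250 genes and at most 50% mitochondrial UMIs. Counts of the 28208 genes shared by all matrices were summed over principal cells per kidney and tested with edgeR 4.0.16 (R 4.3.3, filterByExpr, TMM, glmQLFit, glmQLFTest), all 6 kidneys in 1 fit. Each group had 2 kidneys, and a supplementary figure of the study shows 2 experiments with 1 kidney of each group in each. Whether the labels' kidney numbers are those of the experiments is not given in the sources used here, and the fit has no block. With 2 kidneys a group p-values measure the spread between these samples. Cells are not replicates.

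The cell rule and the gene lists were chosen with earlier results of these data known. Named are the 10 genes with the largest change each way among those past 0.05 with groups that did not overlap, 5 each way for the comparison with thick ascending limb cells, and members of the lists (22 lists of cell type markers, transport, identity, antigen presentation, interferon, injury, immediate early, mitochondrial ATP production and osmolyte genes). Genes beyond these rules, such as Kl, Ly6e and Sh3bgrl3, were picked after their values were seen. Lists are given by counts and medians. Some members of the lists and named genes are counted but not reported here by name.

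Doublets were kept. Scrublet called 10 to 294 barcodes a kidney at its own threshold, and an alternative left out the highest scores at 0.8% per 1000 barcodes, which held 64 members (6.59%). Exact binomial and floor values cover counting error only. Other alternatives were DESeq2 1.42.0, its size factors, no filter on low counts, a replicate block, other barcode and Aqp2 limits, thinning to 1000 UMIs, a second marker, leukocyte transcript screens and leaving out each kidney. The test was checked on simulated data: of 200 genes changed by a log2 of 2, 68.5% (rejecting vs naive), 83.5% (tolerized vs naive) and 69.5% (tolerized vs rejecting) were recovered, and of those changed by a log2 of 1, 3%, 13.5% and 1%.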

Additional observations from a re-analysis of the deposited data

Results flagged for a closer look

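In 19 results the change in principal cells differed from that in thick ascending limb cells by the test of the difference itself (edgeR's quasi-likelihood test with the kidney as a block, adjusted over 10634 genes). They are the 5 largest differences each way in each comparison, of which 1 direction held only 4. From naive to rejecting kidneys the difference between the 2 log2 changes was 8.93 for Scarf2, 5.99 for Aebp1, 5.19 for Pamr1, 3.52 for Cadm1 and 3.51 for Atp2b4. On the other side it was −8.64 for Apobec3, −7.22 for Iigp1, −5.45 for Tm4sf1, −5.27 for C1qa and −4.85 for Defb2. Several rest on sums at or near 0. Scarf2 had no UMI in naive principal cells, and Apobec3 and Iigp1 had none in naive thick ascending limb cells, where fitted differences depend on the prior count. In naive kidney 2, 30 of 31 C1qa UMIs in principal cells lay in 1 member. Atp2b4 passed in all 6 fits with 1 kidney left out, and of the other 9 none did.

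Between tolerized and rejecting grafts the difference was 5.92 for Hba-a1, 5.60 for Tm4sf1, 5.21 for Sparc, 4.50 for Hbb-bs and 3.45 for Rasd1, and −12.13 for Jchain, −7.84 for Mzb1, −7.50 for Iglc3 and −6.86 for Iglc2. The haemoglobin genes stood out in tolerized kidney 2, where principal cells held 6703 Hbb-bs UMIs, 2558 of them in 1 member, and 2356 Hba-a1 UMIs, 788 of them in 1 member. The immunoglobulin genes stood out in rejecting kidney 2, where 1 member held 197 of 198 Jchain and 87 of 89 Iglc2 UMIs. In tolerized kidney 2 Jchain was at 254 CPM (unscaled) in thick ascending limb cells and 6.92 in principal cells. Over the fits with 1 kidney left out the differences shrank to −1.61 for Jchain, −2.60 for Mzb1 and −0.00463 for Iglc3, and Iglc2 reached 2.09. DESeq2 did not call Jchain, Mzb1, Iglc3 or Iglc2. With 2 kidneys a group no kidney could be tested as an outlier.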

How the results depend on the processing

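Both the numbers of genes past an adjusted p of 0.05 and their split by direction moved. For rejecting against naive kidneys (1083 genes) no filter on low counts gave 1745, members with 0 UMIs of 12 leukocyte genes 56, of which 46 were higher (82.1%, against 60.5%), and leaving out a kidney 362 (naive 2) to 1441 (tolerized 2), with 385, 494 and 394 without naive 1, rejecting 1 and rejecting 2. The screen left 12 members of 1 rejecting kidney. For tolerized against naive kidneys (936) these gave 1535, 397 and 274 (naive 2; 287 without naive 1) to 950, and DESeq2 572. For tolerized against rejecting grafts (21) DESeq2 gave 90, no filter 422, at least 5 Aqp2 UMIs 1 and a second marker 1, both lower in tolerized grafts, the 12-gene leukocyte screen 0, doublets left out 43, members with 20 or more leukocyte UMIs left out 36, and leaving out a kidney 0 (naive 2) to 331 (tolerized 1), with 4 and 3, all lower, without rejecting 1 and 2 and 6 without naive 1. For the difference from thick ascending limb cells, rejecting against naive (39), DESeq2 gave 17, no filter 166, at most 20% mitochondrial UMIs 15, the screen 63 (36 higher and 27 lower, against 13 and 26) and leaving out a kidney 14 (naive 1; 16 without naive 2) to 145 (tolerized 2; 137 without tolerized 1). For tolerized against rejecting (17) these were 1 with DESeq2, 83 with no filter, 2 with 5 Aqp2 UMIs, 8 with a second marker, 3 without members of 20 or more leukocyte UMIs, 13 with the screen (2 higher and 11 lower, against 13 and 4), and 18 to 80 (tolerized 1) without a kidney. The leukocyte limit of 20 was added after seeing the data, and so was the crossed block. Where a group kept 1 kidney, that kidney was assumed to vary like the others, and fewer kidneys or genes entered. The cause of the other moves was not tested.

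The correlations of the deviations of kidneys with the same number were 0.020, −0.111 and 0.076, and whether the numbers stand for the study's experiments was not settled. A replicate block gave 977, 824 and 31 genes in the 3 comparisons of principal cells and ended 5 named calls, those of Aqp4, Pde4d and Dnajb1 in rejecting and of Cxcl9 and Hspa1a in tolerized against naive kidneys, and a crossed block, with the naive numbers swapped, 1357, 1169 and 177.

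The difference in percentage points of kept barcodes was −3.69 between rejecting and naive, −2.12 between tolerized and naive, and 1.57 between tolerized and rejecting kidneys. At most 20% mitochondrial UMIs gave −4.62 and −3.43 in the first 2, at least 5 Aqp2 UMIs −3.12 in the first, the leukocyte screen −3.25 in the second, and the share of distal tubule cells −16.8, −6.42 and 10.4. Without 1 kidney the ranges were −4.09 to −3.30, −3.11 to −1.13 and 0.581 to 2.56.

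Of 3365 refitted values for 191 named gene results, 2944 kept their direction and call, 407 lost the call and 14 changed sign. Under the leukocyte screen Tm4sf1 became 5.89 and −9.62 in the 2 comparisons with thick ascending limb cells, and Usp2, Elf5, Ifit3 and Cxcl10 became 0.44, −1.70, −5.68 and −3.57 in rejecting against naive kidneys. Without doublets Tm4sf1 became 0.0643 and −1.46 and Sparc −1.45, and without members of 20 or more leukocyte UMIs Tm4sf1 became 0.45. With at least 5 Aqp2 UMIs Hba-a1 became −0.88 and Hbb-bs −1.24, and over the fits without 1 kidney Aebp1 ranged from −2.70 (without rejecting kidney 2) to 7.43 and Iglc2 from −7.35 to 2.09 (without rejecting kidney 2). Among lists, class I genes that rose numbered 10 to 12 of 12, class II genes 7 of 7 and interferon genes 17 to 23 as a kidney was left out. Changes near a log2 of 1 were mostly missed in simulated data in all 3 comparisons, and depth was not separated there from the number of kidneys.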

Other observations

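Sgk1, an aldosterone-induced kinase, followed the kidney number and not the group in principal cells. It was at 61.9 and 316 CPM (TMM-scaled) in naive kidneys 1 and 2, with 55.8 and 282 in the rejecting grafts and 51.4 and 306 in the tolerized grafts, and its adjusted p was 0.957 for rejecting and 0.978 for tolerized against naive kidneys. Calb1, the calcium-binding protein calbindin, was at 825 CPM in rejecting kidney 1 and 3284 in rejecting kidney 2, with the other 4 kidneys between 1080 and 1483.

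Lcn2 varied within every group. It was at 33.8 and 138, 332 and 864, and 584 and 171 CPM in naive, rejecting and tolerized kidneys, and after thinning to 1000 UMIs it was detected in 3.26% and 7.89% of naive, 21.6% and 32.1% of rejecting, and 23.3% and 4.04% of tolerized members, against at most 0.394% of proximal tubule cells.

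Deposited barcode sequences were shared by 111 barcodes between the 2 naive kidneys, by 18 to 35 between any 2 grafts and by 0 to 4 between a naive kidney and a graft.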
